A study of Rattus norvegicus with 30 samples.

Results

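Plantaris tendons of rats taken 21 days after tenotomy and repair were compared with uninjured plantaris tendons, to describe which gene programs were still altered at that time. The members were the 5 tendons of the 21D 0 mg/kg group and the 3 control tendons, chosen by their sample labels, which gave 8 of the 30 tendons sequenced in the series. The whole study asked how GSK2894631A, an inhibitor of hematopoietic prostaglandin D synthase (HPGDS), acts on tendon repair, with doses of 0, 2 and 6 mg/kg and harvests at 7 and 21 days. RNA was sequenced from the right tendon of each rat, cut to leave out the muscle and the heel bone.

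All tendons came from male Sprague Dawley rats that were 3 months of age when purchased. The age of the control rats at harvest is not given in the sources used here, so any difference in age cannot be told apart from repair. In the 21D 0 mg/kg group the plantaris tendon was cut through completely in both hind limbs, sutured at once with a Bunnell stitch, and left to heal beside an intact Achilles tendon, and the rats were gavaged with vehicle (hydroxypropyl methylcellulose and Tween80, 0 mg/kg of the compound) 2 times a day. The control rats had no surgery and received no compound. Whether they were gavaged with vehicle is not given in the sources used here, so surgery and any difference in gavage cannot be told apart. The 5 tendons of the 7D 0 mg/kg group, with the same surgery and vehicle but harvested after 7 days, served to place the day 21 levels in time. Each tendon was from a separate rat.

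Tendon is built from parallel bundles of type I collagen laid down by tenocytes, with small leucine-rich proteoglycans that limit how thick the fibrils grow. After a cut the gap is filled by a cellular scar in which fibroblasts secrete type III collagen and matricellular glycoproteins, macrophages clear debris, and the scar is then remodelled over weeks to months. Levels are given below as CPM, counts set to a common library total and scaled between tendons by TMM, a method that sets aside the genes that differ most. They compare 1 gene between tendons and not 1 gene with another, since they are not divided by gene length. Fold changes are on the log2 scale, 21D 0 mg/kg minus control, with a standard error (SE), and adjusted p-values are from the quasi-likelihood test of edgeR, adjusted by Benjamini-Hochberg over the 12558 genes tested. A gene was counted as higher or lower when this p was under 0.05 and the change was at least 1.5-fold.

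The libraries held 20446525 to 31659102 counts in control tendons and 27633858 to 46792121 counts in 21D 0 mg/kg tendons. Skeletal muscle transcripts took an uneven part of them. The 28 of 34 listed muscle genes found in the table made up 18.9, 18.8 and 26.3% of the counts in control replicates 2, 3 and 4, and 5.51, 0.0656, 2.22, 2.61 and 7.78% in 21D 0 mg/kg replicates 1 to 5, so that every repaired tendon was below every control. The mean log2 share differed by -3.59 (exact permutation test, two-sided, p = 0.0357, the smallest that 5 against 3 tendons allow). Along the first principal component of log2 CPM over the control, 7D and 21D 0 mg/kg tendons, which carried 71.1% of the variance, control tendons lay between -161 and -108, 7D tendons between 40.8 and 73.8, and 21D replicates 1, 3, 4 and 5 between -15.9 and 19.8. Replicate 2 of the 21D group stood apart at 86.1, past all 7D tendons, and also had the lowest muscle share. The 7D tendons had muscle shares of 0.171 to 1.24%. Across the control, 7D and 21D 0 mg/kg tendons, the order along this component was exactly the reverse of the order of muscle share. Positions on it therefore cannot be told apart from muscle content. This holds also for 21D replicates 1, 3, 4 and 5, which lay between the control and 7D tendons. Control replicate 4 stood apart from the other controls, with the highest muscle share, and control replicate 3 held keratin counts (51.4 CPM of Krt15 and 11.3 CPM of Krt5, epidermal keratins, against at most 0.0472 CPM of either in the other controls).

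Relative to control tendons, 3184 genes were higher (25.4% of the genes tested) and 3163 were lower (25.2%) in 21D 0 mg/kg tendons, 50.5% in either direction, and the median log2 fold change of all genes was 0.03. The paper, also using edgeR with an adjusted p threshold of 0.05, reported far fewer changed transcripts for this comparison. The cause of that difference was not tested. With no regard to the test, 25.0% of genes had every repaired tendon above every control and 27.8% had every repaired tendon below. When the log2 muscle share was added to the model as a covariate, 2360 genes were higher (18.8%) and 2585 lower (20.6%), of which 2301 and 2478 were also called without it. The muscle share did not overlap between the groups, so the covariate cannot fully part muscle content from repair. Without 21D replicate 2 the shares of genes called higher and lower were 23.5 and 24.8%, and without control replicate 4 they were 20.3 and 23.3%. With TMM left out and libraries scaled by their totals alone, the median of all genes moved to 0.59 and 48.0% of genes were called higher and 12.6% lower, so the directions below are relative to the TMM scale. The gene lists that follow are to be read against these backgrounds. In whole tendons, fewer cells of a type and less RNA per cell cannot be told apart.

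**Figure D1:**
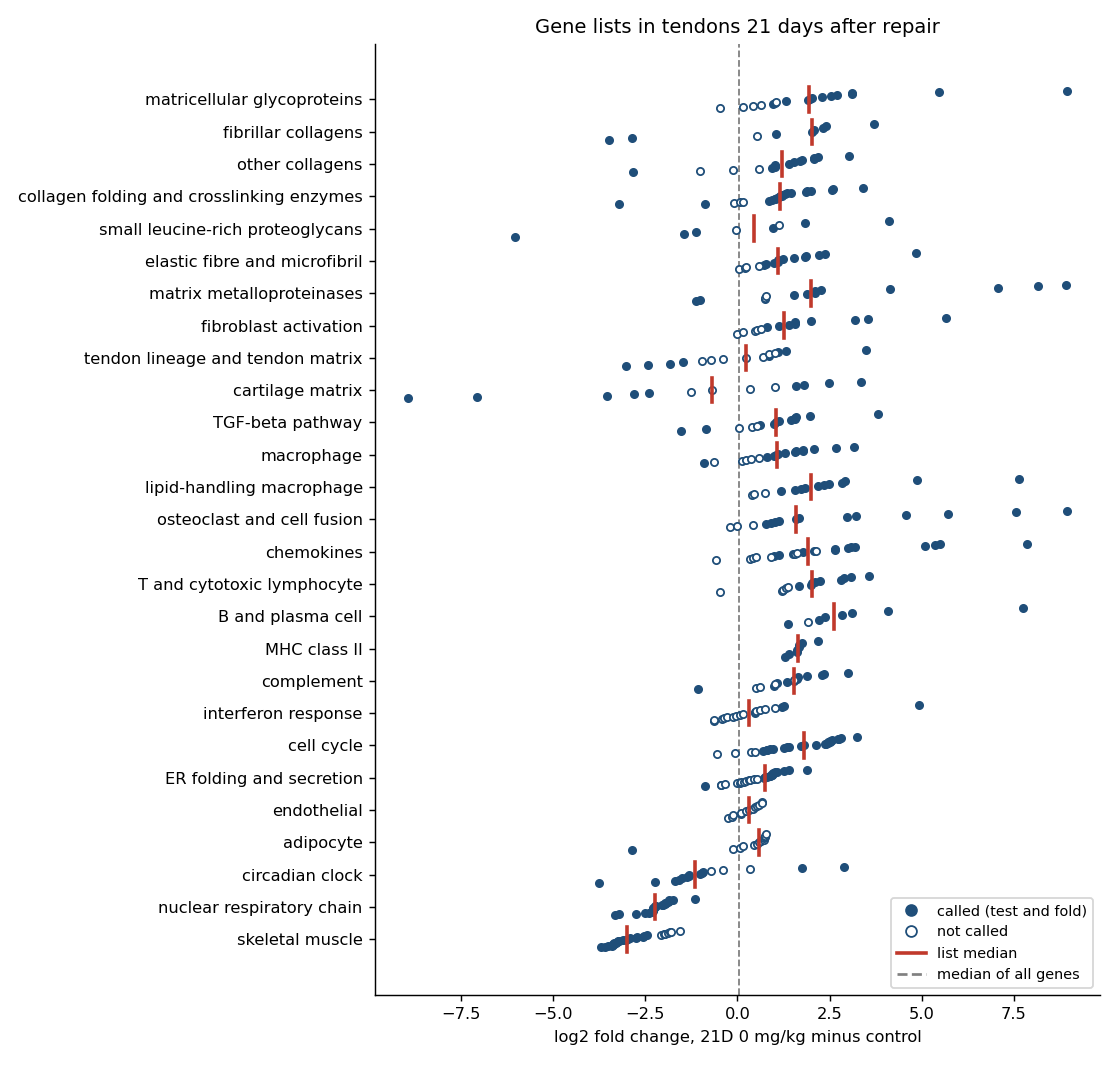
Each point is 1 gene of a list, placed by its log2 fold change (21D 0 mg/kg minus control, horizontal axis); filled points were called by the test and the fold threshold together, open points were not, red bars are list medians and the dashed line is the median of all genes at 0.03. Medians of the matricellular, fibrillar collagen, lipid-handling macrophage and cell cycle lists lie at 1.80 to 2.01, the endothelial median lies at 0.32, and clock, respiratory chain and skeletal muscle lists lie to the left at -1.16, -2.24 and -3.00.

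Genes of the scar matrix were higher in repaired tendons. Of 18 matricellular glycoproteins tested, secreted proteins that tune how cells attach to matrix, 13 were higher and none was lower, with a median log2 fold change of 1.94. Cthrc1 (ENSRNOG00000004578, chromosome 7 of rn6), a secreted protein made by activated fibroblasts, was at 11.7, 14.9 and 7.76 CPM in control replicates 2, 3 and 4 and at 627, 497, 661, 349 and 429.7 CPM in 21D replicates 1 to 5. All repaired tendons were above all controls, with no tendon standing out. Its log2 fold change was 5.48 (SE 0.37, edgeR adjusted p = 1.2e-10). Postn, periostin, which binds collagen during fibril assembly, had 347, 895 and 149 CPM in controls and 3834, 5845, 4379, 3297 and 2699 CPM in repaired tendons (log2 fold change 3.11, SE 0.45, edgeR adjusted p = 2.13e-06). Tnn, tenascin-W, a glycoprotein scarce in adult tissue, was at or below 1.27 CPM in each control and at 363, 533, 680.4, 376 and 449.7 CPM at 21 days. Tnc, tenascin-C, the tenascin of loaded and injured tendon, did not pass the test: 259, 98.3 and 90.2 CPM in controls overlapped 208, 460.4, 409.5, 251 and 203 CPM in repaired tendons (log2 fold change 1.04, SE 0.479, edgeR adjusted p = 0.0594).

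Collagens rose in part. Among 9 fibrillar collagen genes tested, 6 were higher and 2 lower, and among 16 other collagens 12 were higher and 1 lower, with medians of 2.01 and 1.21. Col3a1 (ENSRNOG00000003357, chromosome 9), the type III collagen of early scar, was at 11412, 12298 and 3490.1 CPM in controls and 30229, 36281, 46765, 46121 and 30782 CPM in repaired tendons. The groups were separate, with control replicate 4 the lowest, and the log2 fold change was 2.07 (SE 0.29, edgeR adjusted p = 1.42e-06). Col1a1, the main tendon collagen, was at 30142, 17827 and 7359 CPM in controls and 19925, 25435, 37894, 28796 and 20389 CPM at 21 days, which overlapped, and it did not pass the test (log2 fold change 0.52, SE 0.325, edgeR adjusted p = 0.159). Col5a3 and Col8a1, chains of a fibril-nucleating and of a network-forming collagen, had the largest log2 fold change of their lists, at 3.71 and 3.02 (edgeR adjusted p = 6.55e-08 and 3.81e-07). Col12a1 and Col14a1, which decorate the fibril surface, had log2 fold changes of 2.18 and 1.01 (edgeR adjusted p = 6.84e-05 and 0.00867), and the call on Col14a1 was lost without control replicate 4 (edgeR adjusted p = 0.0706).

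The 2 fibrillar collagens that fell were minor chains. Col11a2, a chain of cartilage type XI collagen, was at 281, 49.8 and 101 CPM in controls against 10.2, 6.58, 30.6, 6.37 and 9.77 CPM in repaired tendons (log2 fold change -3.50, SE 0.527, edgeR adjusted p = 3.72e-06), and Col24a1 was at 72.9, 90.5 and 35.9 against 11.2, 11.6, 6.84, 5.6 and 10.7 CPM (log2 fold change -2.85, SE 0.408, edgeR adjusted p = 1.82e-06). All repaired tendons were below all controls for both genes.

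Enzymes that fold, trim and crosslink collagen moved up with the chains. Of 23 tested, 18 were higher and 2 lower, with a median of 1.16. P4ha3 (ENSRNOG00000017118, chromosome 1), a prolyl 4-hydroxylase subunit, was at 9.91, 6.98 and 2.53 CPM in controls and 62.5, 61.9, 107, 50.6 and 63.9 CPM at 21 days, with replicate 3 the highest (log2 fold change 3.39, SE 0.333, edgeR adjusted p = 1.17e-08). Lox, the crosslinking lysyl oxidase, was at 212, 129 and 55.5 CPM against 461, 573, 712, 455 and 452 CPM (log2 fold change 2.00, SE 0.292, edgeR adjusted p = 2.35e-06). Plod2, whose product hydroxylates telopeptide lysines, Loxl2 and Adamts14, a procollagen N-propeptidase, had log2 fold changes of 1.86, 1.89 and 2.58. P3h2, a prolyl 3-hydroxylase, went the other way, from 34.8, 10.4 and 7.76 CPM in controls to 2.27, 1.42, 2.02, 1.98 and 1.79 CPM at 21 days (log2 fold change -3.22, SE 0.382, edgeR adjusted p = 1.58e-07), with every repaired tendon below every control.

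Of 8 small leucine-rich proteoglycans 3 were called higher and 3 lower, the lower ones being 1 without control replicate 2 and 1 when scaled by library size only. Lum (ENSRNOG00000004610, chromosome 7), lumican, was at 274, 78.7 and 135 CPM in controls and 2455, 3341, 3143, 2575 and 2482 CPM in repaired tendons, with a wide gap between the groups (log2 fold change 4.11, SE 0.365, edgeR adjusted p = 3.58e-09). Bgn, biglycan, was at 1118, 685 and 388 CPM against 2443, 2276, 3195, 2474 and 2504 CPM (log2 fold change 1.82, SE 0.258, edgeR adjusted p = 1.59e-06). Dcn, decorin, overlapped between the groups at 5947, 4323 and 2029 and 3445, 3777, 4631, 4133 and 3791 CPM (log2 fold change -0.05, SE 0.224, edgeR adjusted p = 0.848). Fmod, fibromodulin, was called lower (log2 fold change -1.14, SE 0.389, edgeR adjusted p = 0.0129), but this rested on control replicate 2, which was at 3209.6 CPM where the other controls were at 869 and 772 CPM and repaired tendons at 383 to 1293 CPM, and without it the edgeR adjusted p was 0.626.

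**Figure D2:**
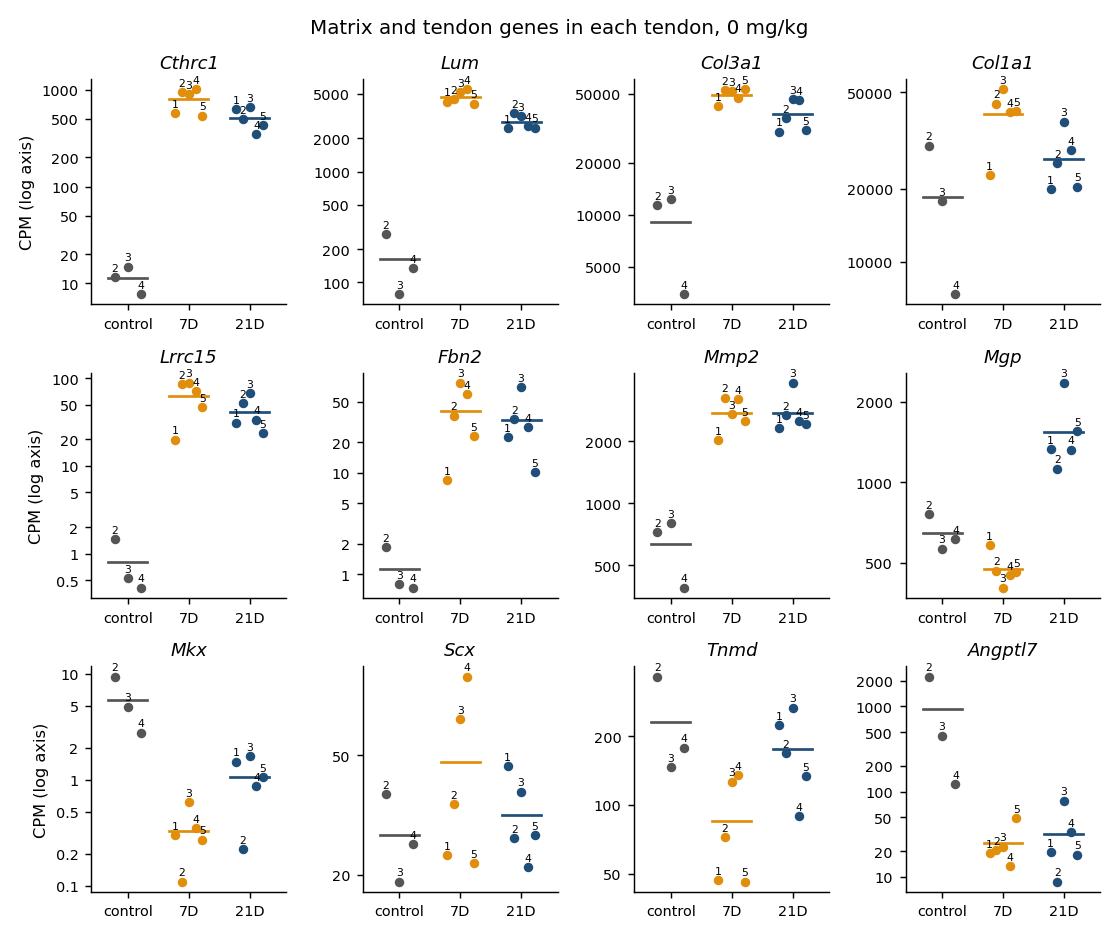
Points are single tendons of the control, 7D and 21D 0 mg/kg groups, numbered by replicate, on a log axis of CPM that differs between panels; bars are group means. Cthrc1, Lum, Col3a1, Lrrc15, Fbn2 and Mmp2 stand above all controls at 7 and 21 days, Col1a1, Scx and Tnmd overlap the controls at 21 days, Mkx and Angptl7 stand below them, and Mgp stands above both other groups only at 21 days.

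Of 15 tendon lineage genes tested 4 were higher and 4 lower, 26.7% each, which is near the 25.4 and 25.2% of all genes. Without control replicate 4 there were 2 higher and 4 lower, with the muscle covariate 4 higher and 2 lower, and scaled by library size only 7 higher and 3 lower. Mkx (ENSRNOG00000018938, chromosome 17), mohawk, a homeobox factor needed for mature tendon collagen, was at 9.39, 4.89 and 2.78 CPM in controls and 1.48, 0.22, 1.66, 0.87 and 1.05 CPM in repaired tendons. All repaired tendons were below all controls and replicate 2 was the lowest (log2 fold change -2.42, SE 0.568, edgeR adjusted p = 0.000654). Scx, scleraxis, the early tendon transcription factor, was at 37.2, 19 and 25.3 CPM in controls and 46.1, 26.5, 37.9, 21.2 and 27.1 CPM at 21 days (log2 fold change 0.23, SE 0.386, edgeR adjusted p = 0.618). Tnmd, tenomodulin, a late tenocyte membrane protein, was at 364, 147 and 178 against 223, 168, 266, 89.6 and 134 CPM (log2 fold change -0.38, SE 0.448, edgeR adjusted p = 0.459). Both overlapped between the groups and neither passed the test, which does not show equal levels. Thbs4, a thrombospondin of tendon and muscle junctions, was called higher (log2 fold change 1.09, SE 0.37, edgeR adjusted p = 0.0124), a call that was lost without control replicate 3 or 4 (highest edgeR adjusted p = 0.0973).

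Secreted proteins of mature tendon and cartilage were measured beside these factors. Angptl7 (ENSRNOG00000009589, chromosome 5), a secreted angiopoietin-like protein, was at 2245, 453 and 123 CPM in controls and 19.5, 8.78, 78.6, 33.6 and 18.2 CPM in repaired tendons (log2 fold change -4.89, SE 0.764, edgeR adjusted p = 5.94e-06). The controls were widely spread, with replicate 2 the highest, yet each was above each repaired tendon. Comp, a cartilage and tendon matrix protein, had the same high control replicate 2, at 959, 171 and 134 CPM, but overlapped 115, 146, 464, 198 and 369 CPM at 21 days (log2 fold change -0.70, SE 0.535, edgeR adjusted p = 0.249), and without that control its log2 fold change was 0.71. In the cartilage list 4 of 13 genes were higher and 5 lower, against 2 higher and 6 lower without control replicate 4 and 2 higher and 4 lower with the muscle covariate. Acan, aggrecan, was called higher (log2 fold change 1.80, SE 0.685, edgeR adjusted p = 0.024), but the call was lost without control replicate 3 or 4 or 21D replicate 2, and Col2a1 did not pass (13.9, 2.97 and 5.06 against 3.01, 1.6, 7.13, 1.77 and 1.58 CPM). Sox6, a cartilage factor that muscle also expresses, was lower (log2 fold change -2.80, SE 0.757, edgeR adjusted p = 0.00231), and not at the threshold with the muscle covariate (edgeR adjusted p = 0.075).

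More genes for mineral control and elastic microfibrils were higher than lower. Of 7 osteoblast and mineral genes tested 4 were higher and 1, Dmp1, lower (log2 fold change -2.25, SE 0.563, edgeR adjusted p = 0.00116). Runx2, the osteoblast and hypertrophic cartilage factor, was at 5.43, 5.97 and 8.25 CPM in controls and 16.9, 34.5, 16.9, 13.7 and 19.2 CPM at 21 days (log2 fold change 1.63, SE 0.334, edgeR adjusted p = 0.000155). Mgp (ENSRNOG00000005695, chromosome 4), matrix Gla protein, an inhibitor of calcification, was at 758, 565 and 614 CPM in controls and 1327, 1125, 2354, 1324 and 1554 CPM in repaired tendons (log2 fold change 1.25, SE 0.29, edgeR adjusted p = 0.000578), and all repaired tendons were above all controls. Of 16 elastic fibre genes 12 were higher and none lower. Fbn2, fibrillin-2, the fibrillin of developing tissue, was at 1.84, 0.802 and 0.735 CPM against 22.6, 33.7, 69.5, 28.3 and 10.2 CPM (log2 fold change 4.83, SE 0.737, edgeR adjusted p = 4.29e-06), while Eln, elastin, was called at a log2 fold change of only 0.73 and lost the call without control replicate 2 or 4 (highest edgeR adjusted p = 0.138). Fbn1, Ltbp2, which binds fibrillin, and Emilin1 were higher at 1.87, 2.38 and 2.21.

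Matrix proteases were higher as well, with 9 of 14 metalloproteinases higher and 2 lower. Mmp2 (ENSRNOG00000016695, chromosome 19), a gelatinase of fibroblasts, was at 724, 798 and 389 CPM in controls and 2305, 2661, 3831, 2497 and 2419.97 CPM at 21 days (log2 fold change 2.11, SE 0.247, edgeR adjusted p = 1.31e-07). Mmp16, a membrane-bound metalloproteinase, was at 8.78, 6.05 and 3.27 against 24.7, 24, 30.9, 30.6 and 21.7 CPM (log2 fold change 2.11, SE 0.325, edgeR adjusted p = 4.74e-06). Mmp3, stromelysin-1, overlapped at 55, 38.6 and 3.92 and 36.7, 99.98, 28.3, 66.1 and 49.8 CPM and did not pass (log2 fold change 0.78, SE 0.617, edgeR adjusted p = 0.269). Their inhibitors differed among themselves. Timp1 rose from 55.7, 60.9 and 21.8 to 194, 358, 221, 246 and 219.8 CPM (log2 fold change 2.42, SE 0.302, edgeR adjusted p = 2.86e-07), Timp2 rose with it (log2 fold change 1.20, SE 0.225, edgeR adjusted p = 5.87e-05), and Timp4 fell from 18.7, 21.5 and 42.6 to 8.55, 3.05, 5.26, 5.36 and 10.8 CPM (log2 fold change -2.06, SE 0.397, edgeR adjusted p = 8.06e-05).

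Fibroblast activation genes followed the scar matrix, with 9 of 14 higher and none lower. Lrrc15 (ENSRNOG00000038539, chromosome 11), a membrane protein of matrix-producing fibroblasts, was at 1.46, 0.521 and 0.408 CPM in controls and 31, 51.6, 68, 33.6 and 23.7 CPM in repaired tendons (log2 fold change 5.65, SE 0.554, edgeR adjusted p = 1.17e-08). Tnfaip6, a hyaluronan-binding protein induced in injury, was at 8.96, 12.1 and 8.01 against 116, 107, 102, 133 and 109 CPM (log2 fold change 3.54, SE 0.37, edgeR adjusted p = 2.64e-08), and Fap, fibroblast activation protein, at 57.3, 46.1 and 25.8 against 130.4, 119, 139, 143 and 104 CPM (log2 fold change 1.56, SE 0.197, edgeR adjusted p = 3.63e-07). Pdgfra, a general fibroblast receptor, overlapped between the groups (log2 fold change 0.52, SE 0.268, edgeR adjusted p = 0.0907). The contractile markers gave fewer calls. Of 12 smooth muscle and myofibroblast genes 3 were higher (25.0%, near the 25.4% of all genes) and 1 lower. Cald1, Tpm4 and Itga11 were higher (log2 fold change 1.18, 1.26 and 0.87, edgeR adjusted p = 7.05e-06, 3.26e-06 and 0.0379). Lmod1 was lower (log2 fold change -1.34, SE 0.279, edgeR adjusted p = 0.000191). Acta2, smooth muscle actin, was at 32.1, 98.8 and 59.6 CPM in controls and 92.1, 76.8, 91.5, 65.6 and 63.3 CPM at 21 days (log2 fold change 0.29, SE 0.354, edgeR adjusted p = 0.473). Scaled by library size only, 6 of these 12 genes were called higher.

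Ligands and regulators of growth factor pathways were called in both directions. Of 15 TGF-beta pathway genes 10 were higher and 2 lower, a count that fell to 6 higher with the muscle covariate and to 6 higher without control replicate 4. Tgfb1, the ligand, was at 32.3, 37.1 and 21.4 CPM in controls and 86.2, 186, 108, 121 and 94.3 CPM in repaired tendons (log2 fold change 1.97, SE 0.298, edgeR adjusted p = 3.69e-06). Lrrc32, which holds latent TGF-beta on cell surfaces, was at 22, 41.1 and 29.3 against 118, 82.5, 129, 75 and 59.8 CPM (log2 fold change 1.59, SE 0.244, edgeR adjusted p = 4.74e-06). The ligand Tgfb3 fell short of the fold threshold (log2 fold change 0.53, SE 0.234, edgeR adjusted p = 0.0478). Among 22 BMP and WNT ligands and inhibitors 7 were higher and 6 lower, or 11 and 2 when scaled by library size only. The shares of 31.8 and 27.3% are near the 25.4 and 25.2% of all genes, so nothing is read from these counts. The secreted WNT inhibitor Sfrp4 was at 119, 156 and 48.5 CPM in controls and 815, 1237, 987, 789 and 1183 CPM at 21 days (log2 fold change 3.21, SE 0.362, edgeR adjusted p = 7.34e-08), and Mstn, myostatin, which muscle makes, was lower (log2 fold change -3.54, SE 0.915, edgeR adjusted p = 0.00156). Of 9 IGF system genes 4 were higher, among them Igf1 at 68.2, 73.9 and 26.3 against 117, 126, 209.7, 203 and 186 CPM (log2 fold change 1.58, SE 0.287, edgeR adjusted p = 3.92e-05) and Igfbp4, a binding protein, at 99.5, 231 and 104 against 753, 775, 1088, 487 and 908 CPM (log2 fold change 2.47, SE 0.313, edgeR adjusted p = 3.57e-07).

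Macrophage genes were still above control at 21 days. Of 14 lipid-handling macrophage genes 11 were higher and none lower (median 2.00), and 10 were higher with the muscle covariate. Gpnmb (ENSRNOG00000008816, chromosome 4), a lysosomal glycoprotein of phagocytes, was at 62.8, 88.4 and 21.9 CPM in controls and 548, 4082, 645, 1141 and 2098 CPM at 21 days (log2 fold change 4.88, SE 0.859, edgeR adjusted p = 2.71e-05). Spp1, osteopontin, was at 6.75, 4.89 and 8.33 against 196, 4457, 245, 737 and 997 CPM (log2 fold change 7.64, SE 1.64, edgeR adjusted p = 0.000268). In both genes every repaired tendon was above every control and replicate 2 was the highest. Trem2, a lipid receptor, and Apoe, apolipoprotein E, were higher by 2.83 and 2.92 (edgeR adjusted p = 1.65e-05 and 2.26e-05).

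Of 18 general macrophage genes 12 were higher and 1, Lyve1, lower, with a median of 1.07. That count was 8 without 21D replicate 2, 8 without control replicate 4 and 4 with the muscle covariate, whereas their summed level was 2026 to 9348 CPM in repaired tendons, replicate 2 highest, and 659 to 2833 CPM in controls. Cd68, a phagocyte lysosomal protein, was at 26, 23.6 and 7.19 CPM in controls and 55.3, 389.8, 86, 161 and 166 CPM at 21 days (log2 fold change 3.17, SE 0.693, edgeR adjusted p = 0.000319). Adgre1, the F4/80 antigen, was at 14.7, 18.7 and 9.15 against 16.7, 62.1, 40.6, 67.7 and 29.4 CPM, with repaired replicate 1 inside the control range (log2 fold change 1.60, SE 0.444, edgeR adjusted p = 0.00285). The scavenger receptors of resident macrophages did not pass: Mrc1 was at 187, 141 and 27.2 against 91.3, 146, 193, 226 and 105 CPM (log2 fold change 0.36, SE 0.421, edgeR adjusted p = 0.46) and Cd163 at 96.6, 80.6 and 13 against 28.2, 26.9, 68.5, 57.4 and 22 CPM (log2 fold change -0.65, SE 0.511, edgeR adjusted p = 0.269).

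Osteoclast and cell fusion genes, which act in multinucleated giant cells and in bone resorption, were higher in 12 of 15 cases and lower in none (median 1.59), or in 8 with the muscle covariate. Ctsk (ENSRNOG00000021155, chromosome 2), cathepsin K, a collagen-degrading protease, was at 133, 129 and 60.5 CPM in controls and 529, 1311, 611, 645 and 1131 CPM in repaired tendons (log2 fold change 2.97, SE 0.425, edgeR adjusted p = 1.81e-06), and Acp5, tartrate-resistant acid phosphatase, at 13.5, 14.7 and 7.6 against 80.5, 151, 81.1, 121 and 124 CPM (log2 fold change 3.21, SE 0.464, edgeR adjusted p = 2.09e-06). Ocstamp, a fusion protein, had 1 count in all controls together and 0.956, 31.6, 0.811, 2.96 and 15 CPM in repaired tendons, a ratio of 599 with a 95% exact Poisson interval of 108 to 23664 that covers counting error only. Psca, a small membrane-anchored protein, had 3 counts in all controls together and 1.36, 42.4, 2.2, 3.17 and 21.3 CPM in repaired tendons, likewise highest in replicate 2, a ratio of 274 with an interval of 93.8 to 1329.

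Of 22 chemokines 14 were higher and none lower (median 1.92), and 10 were higher and 1 lower with the covariate. Ccl9, a myeloid chemokine, was at 0.425, 1.12 and 1.06 CPM in controls and 34.6, 592, 34.8, 44.8 and 284 CPM at 21 days (log2 fold change 7.84, SE 1.54, edgeR adjusted p = 0.000104). Ccl2, the main monocyte attractant, was at 8.16, 40.9 and 3.27 against 111, 206, 133, 122 and 128 CPM (log2 fold change 2.99, SE 0.54, edgeR adjusted p = 3.74e-05). Cxcl12, which fibroblasts make, was higher by a smaller step (log2 fold change 0.99, SE 0.279, edgeR adjusted p = 0.00333) and fell short of the fold threshold without control replicate 2. Cxcl13, the B cell attractant, was at 8.92, 5.77 and 2.04 CPM in controls and 3.82, 159, 7.26, 59.6 and 10.5 CPM at 21 days, high in replicates 2 and 4 and overlapping in replicates 1 and 3 (log2 fold change 3.07, SE 1.09, edgeR adjusted p = 0.0155). The call was lost without 21D replicate 2 or control replicate 4, and with the muscle covariate.

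Of 12 neutrophil and acute inflammation genes 5 were higher and none lower. Il1b was at 3.82, 4.21 and 0.327 CPM in controls and 6.9, 27.6, 9.25, 11.6 and 10.6 CPM at 21 days (log2 fold change 2.18, SE 0.597, edgeR adjusted p = 0.00255). Il6 was called higher (log2 fold change 3.46, SE 1.15, edgeR adjusted p = 0.0104) but was under 1 CPM in replicates 1, 3 and 4, and lost the call without control replicate 2 (edgeR adjusted p = 0.0554). S100a8, a neutrophil protein, was at 1.84, 2.12 and 1.55 against 2.94, 4.0, 5.64, 3.83 and 1.44 CPM (log2 fold change 0.95, SE 0.675, edgeR adjusted p = 0.219).

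Lymphocyte transcripts were low but above control. Of 14 T and cytotoxic lymphocyte genes 9 were higher, and of 8 B and plasma cell genes 7 were higher, the latter 4 without control replicate 4, with none lower in either list. Cd8a was at 2.08, 1.36 and 0.817 CPM in controls and 6.83, 6.2, 3.6, 7.41 and 4.87 CPM in repaired tendons (log2 fold change 1.99, SE 0.367, edgeR adjusted p = 4.83e-05), while the T cell receptor subunit Cd3e overlapped between groups and lost its call without control replicate 3 or 4 or 21D replicate 4 (log2 fold change 2.03, SE 0.769, edgeR adjusted p = 0.0228). Cd79b, of the B cell receptor, was at 0.661, 0.361 and 0 against 5.88, 0.787, 3.39, 3.9 and 2.07 CPM (log2 fold change 3.10, SE 1.12, edgeR adjusted p = 0.0173), a call lost without control replicate 3 or 4. Ms4a1, CD20, had no count in any control, and its mean at 21 days was at least 5.02-fold higher than the floor of 3 counts per control library (on average 0.169 CPM). The B cell list median was 2.62 as fitted and 2.35 with Ms4a1 at that bound.

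Antigen presentation and complement were raised. Each of the 8 MHC class II genes tested was higher (median 1.64), also with the covariate, although RT1 genes have close copies between which reads can be split. Cd74, the invariant chain, was at 307, 438 and 195 CPM in controls and 544, 1149.7, 1134, 1244 and 726 CPM at 21 days (log2 fold change 1.61, SE 0.328, edgeR adjusted p = 0.00015), and Ciita, the class II transactivator, was higher (log2 fold change 2.19, SE 0.357, edgeR adjusted p = 1.02e-05). Of 15 complement genes 10 were higher and 1, Clu, lower. C1s, of the classical pathway, was at 202, 249.9 and 81.9 against 649, 981, 1069.8, 891 and 779.7 CPM (log2 fold change 2.29, SE 0.259, edgeR adjusted p = 7.69e-08), and C3 at 2.74, 4.85 and 1.23 against 15.1, 30.1, 27.9, 27.9 and 20.3 CPM (log2 fold change 2.99, SE 0.496, edgeR adjusted p = 1.26e-05). Of 18 interferon response genes 3 were higher and none lower, with a median of 0.31, or 1 higher without control replicate 2, 3 or 4 and 8 higher when scaled by library size only. Irf7, one of the 3, had an edgeR adjusted p of 0.0487 and lost its call when any 1 of control replicates 2, 3 and 4 or 21D replicates 3 and 4 was left out. Among 9 mast cell genes Kit, the stem cell factor receptor, was higher (log2 fold change 1.08, SE 0.225, edgeR adjusted p = 0.000189), and the other 8 were not called, Cpa3 included, although 4 of the 9 were called higher without control replicate 3.

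**Figure D3:**
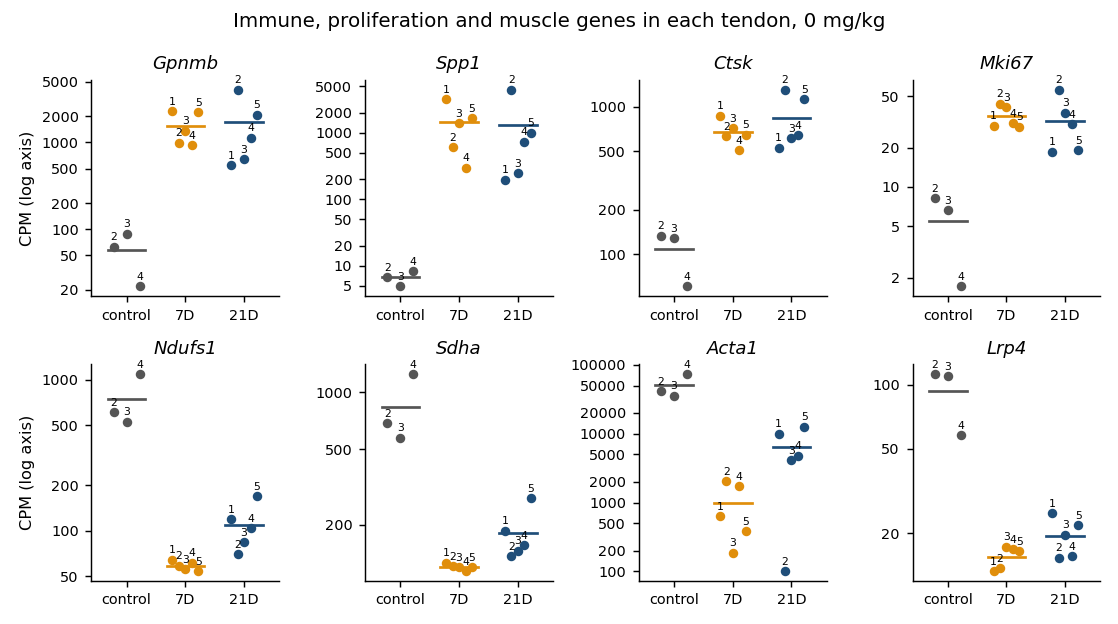
Points are single tendons of the control, 7D and 21D 0 mg/kg groups, numbered by replicate, on a log axis of CPM that differs between panels; bars are group means. In the top row all 21D tendons lie above all controls, with replicate 2 the highest, and in the bottom row all lie below all controls, with Acta1 spread from 102 to 12632 CPM among the 21D tendons.

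Cell division continued to be transcribed. Of 27 cell cycle genes 23 were higher and none lower, with a median of 1.80, and 20 were higher with the covariate. Mki67, the proliferation antigen Ki-67, was at 8.16, 6.66 and 1.72 CPM in controls and 18.7, 56.4, 37.4, 30.4 and 19.1 CPM in repaired tendons (log2 fold change 2.52, SE 0.411, edgeR adjusted p = 1e-05). Cdk1 (ENSRNOG00000000632, chromosome 20), the kinase that starts mitosis, was at 2.5, 1.64 and 3.84 against 12.9, 17.8, 15.8, 15 and 10.3 CPM (log2 fold change 2.46, SE 0.35, edgeR adjusted p = 1.68e-06), and Top2a (ENSRNOG00000053047, chromosome 10), the topoisomerase that untangles chromosomes, at 7.31, 5.97 and 3.68 against 24.5, 40.7, 36.9, 32.8 and 16.8 CPM (log2 fold change 2.41, SE 0.347, edgeR adjusted p = 2e-06). All 3 were above control in every repaired tendon, with replicate 2 the highest. Kif11 and Cenpf, of the spindle and the kinetochore, were higher by 2.81 and 2.74, and Hmmr by only 0.79 (edgeR adjusted p = 0.0366, lost when any 1 control or 21D replicate 1, 2 or 4 was left out).

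Promoters of late cell cycle genes are known for CCAAT boxes and for the cell cycle homology region. The 250 bases before the RefSeq start of Cdk1 and Top2a are printed below from RefSeq for the GRCr8 assembly, as examples of called genes that carry both motifs. Cdk1 is at chr20:19265043-19265292 on the plus strand and Top2a at chr10:84473094-84473343 on the minus strand, each written 5′ to 3′ along its gene. Capitals mark CCAAT and TTTGAA or their reverse complements ATTGG and TTCAAA.
Cdk1: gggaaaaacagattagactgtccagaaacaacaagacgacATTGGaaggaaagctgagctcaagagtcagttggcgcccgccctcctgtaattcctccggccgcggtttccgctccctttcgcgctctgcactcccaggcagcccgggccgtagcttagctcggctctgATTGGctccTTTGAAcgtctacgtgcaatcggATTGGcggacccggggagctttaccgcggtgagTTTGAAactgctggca
Top2a: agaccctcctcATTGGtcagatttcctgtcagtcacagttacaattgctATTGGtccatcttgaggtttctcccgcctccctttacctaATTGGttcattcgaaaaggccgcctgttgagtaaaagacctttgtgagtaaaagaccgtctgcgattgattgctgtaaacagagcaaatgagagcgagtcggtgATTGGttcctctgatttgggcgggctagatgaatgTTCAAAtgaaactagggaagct
The Cdk1 window holds 3 copies of the first motif and 2 of the second, and the Top2a window holds 4 and 1. Of the 27 cell cycle genes tested 22 had an entry, and 17 of those windows (77.27%) held CCAAT on either strand against 34.02% of all 33469 windows, and 7 (31.82%) held TTTGAA on either strand against 16.2%. Neither motif holds the other. The windows with CCAAT include those of Mcm7 and Pcna, which were not called (log2 fold change -0.55 and 0.36). These matches describe the letters and do not show that a factor was bound.

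The secretory pathway, which carries collagen out of the cell, was measured next. Of 28 genes of ER folding and secretion 15 were higher and 1 lower, with a median of 0.74. Sdf2l1, an ER chaperone cofactor, was at 14.6, 12.9 and 11.9 CPM in controls and 28.6, 60.4, 53.3, 46.3 and 53.7 CPM at 21 days (log2 fold change 1.88, SE 0.232, edgeR adjusted p = 2.57e-07), and Sec61a1, the translocon pore, was higher (log2 fold change 1.39, SE 0.164, edgeR adjusted p = 1.35e-07). Hspa5, the abundant chaperone BiP, had 383, 413 and 396 against 419, 527, 678, 538 and 527 CPM, which did not overlap, but its change of 0.44 was under the fold threshold (edgeR adjusted p = 0.00762).

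Muscle and mitochondrial transcripts were among the decreases. Of 28 skeletal muscle genes tested 21 were lower and none higher, with a median of -3.00. Acta1 (ENSRNOG00000017786, chromosome 19), skeletal actin, was at 41626, 35679 and 72823 CPM in controls and 10053, 102, 4147, 4814 and 12632 CPM in repaired tendons (log2 fold change -2.98, SE 0.985, edgeR adjusted p = 0.0103). Replicate 2 was far below the other repaired tendons, and replicates 1 and 5 were the highest of them. Myh4 and Ckm, the fast myosin and muscle creatine kinase, had log2 fold changes of -3.38 and -3.40, and Pvalb, the calcium buffer of fast fibres, of -3.71. Myh7, the slow myosin, was at 832, 387 and 1827 CPM in controls and 467, 0.252, 89.5, 294 and 585 CPM at 21 days and did not pass (log2 fold change -1.82, SE 1.46, edgeR adjusted p = 0.276). The muscle share of counts had the list's own genes in it, so the covariate removes most of this by construction, and 5 of the 28 were lower with it. Myh8, the perinatal myosin, was lower as well (log2 fold change -3.97, edgeR adjusted p = 0.000638).

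Each of the 27 nuclear genes of the respiratory chain was lower, with a median of -2.24. With the muscle covariate, which has the limit given above, 25 were called lower, at a median of -1.57. The summed level of the 27 genes was 19686, 17461 and 45643 CPM in control replicates 2, 3 and 4. It was 6916, 3919, 4804, 5357 and 8833 CPM in 21D replicates 1 to 5, in each group in the order of the muscle share. The part of muscle content in these decreases was not tested. Ndufs1 (ENSRNOG00000011849, chromosome 9), a core subunit of complex I, was at 609, 527 and 1086 CPM in controls and 119, 69.8, 84.1, 104 and 169 CPM in repaired tendons (log2 fold change -2.76, SE 0.382, edgeR adjusted p = 1.19e-06). Sdha, of complex II, was at 689, 577 and 1243 against 186, 137, 146, 156 and 275 CPM (log2 fold change -2.21, SE 0.271, edgeR adjusted p = 2.31e-07), and Cox4i1, of complex IV, changed less (log2 fold change -1.15, SE 0.214, edgeR adjusted p = 5.36e-05) and fell short of the fold threshold without control replicate 4. For each of these 3 genes control replicate 4, which had the most muscle counts, was the highest, and no repaired tendon reached the control range.

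Of 6 genes of the contact between nerve and muscle 4 were lower. Lrp4 (ENSRNOG00000015285, chromosome 3), the agrin receptor, was at 112, 110.1 and 57.8 CPM in controls and 24.9, 15.3, 19.7, 15.6 and 21.9 CPM at 21 days (log2 fold change -2.26, SE 0.204, edgeR adjusted p = 3.84e-09). Musk, its partner kinase, is in the list of muscle regeneration and development, of which 7 of 12 were lower (4 without control replicate 4, and 3 lower and 1 higher with the muscle covariate), and was at 15.1, 11.9 and 7.68 against 1.15, 1.38, 1.19, 1.25 and 2.31 CPM (log2 fold change -2.99, SE 0.407, edgeR adjusted p = 9.32e-07). With the muscle covariate the log2 fold changes of Lrp4 and Musk were -2.03 and -2.26 (edgeR adjusted p = 2.92e-07 and 0.000137). The covariate has the limit given above for these genes too. Cfap52, a protein of motile cilia, was at 17.1, 18.1 and 18.9 CPM in controls and 0.454, 0.189, 0.333, 0.383 and 1.89 CPM in repaired tendons (log2 fold change -4.81, SE 0.594, edgeR adjusted p = 2.55e-07), and was also lower with the covariate (-3.72, edgeR adjusted p = 4.37e-06).

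**Figure D4:**
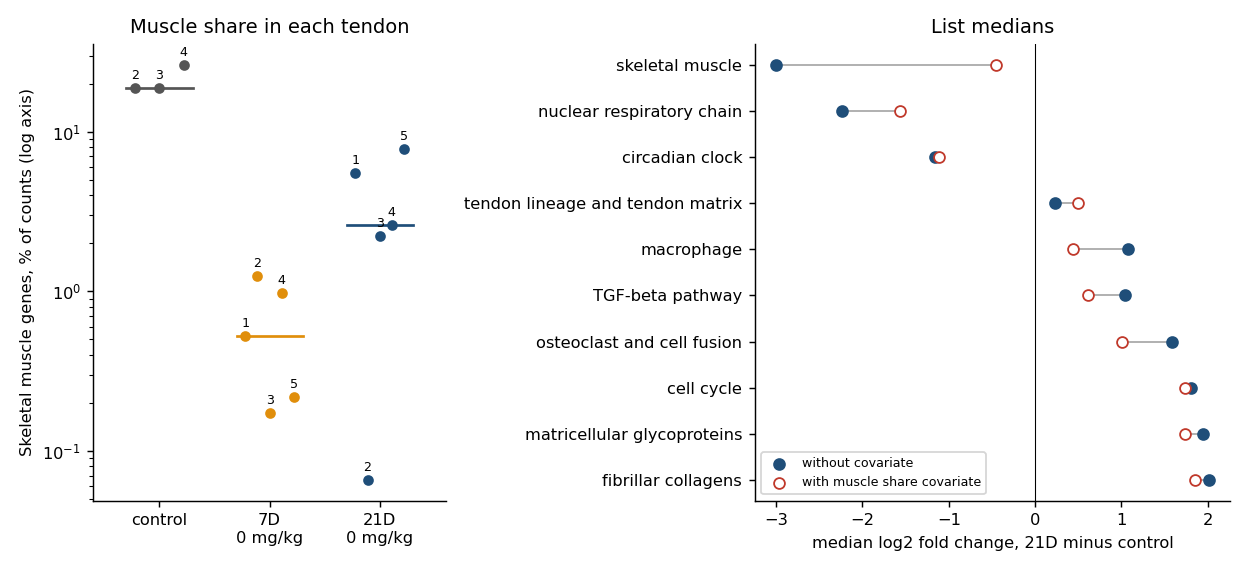
Left, the percent of counts on the listed skeletal muscle genes in each tendon, numbered by replicate, on a log axis with group medians as bars; right, the median log2 fold change (21D 0 mg/kg minus control) of 10 gene lists without (filled) and with (open) the muscle share as a covariate. The 21D tendons run from 0.0656 to 7.78% and the controls from 18.8 to 26.3%, and the respiratory chain median moves from -2.24 to -1.57, the macrophage median from 1.07 to 0.44 and the fibrillar collagen median from 2.01 to 1.86.

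The circadian clock genes differed from control in opposite directions. The clock runs on a loop in which the activators Arntl (BMAL1), Clock and Npas2 bind E-boxes of the Per, Cry, Nr1d, Dbp, Tef and Ciart genes, whose products feed back on the activators. The promoter windows of Ciart and Tef show this motif and are printed from RefSeq for GRCr8, with CACGTG, which is its own reverse complement, in capitals. Ciart is at chr2:186112247-186112496 on the minus strand and Tef at chr7:115206577-115206826 on the plus strand, each 5′ to 3′ along its gene.
Ciart: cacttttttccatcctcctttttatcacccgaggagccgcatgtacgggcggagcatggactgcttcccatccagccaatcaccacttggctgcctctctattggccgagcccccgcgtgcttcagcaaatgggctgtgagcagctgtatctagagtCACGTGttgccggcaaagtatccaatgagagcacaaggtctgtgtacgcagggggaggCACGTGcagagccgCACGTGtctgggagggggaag
Tef: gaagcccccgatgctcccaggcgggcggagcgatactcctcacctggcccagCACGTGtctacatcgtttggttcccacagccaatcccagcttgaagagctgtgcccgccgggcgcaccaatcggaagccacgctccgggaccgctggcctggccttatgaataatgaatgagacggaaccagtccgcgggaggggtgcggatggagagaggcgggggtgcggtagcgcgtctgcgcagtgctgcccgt
Ciart holds the E-box 3 times and Tef once. Of 15 windows of the 13 clock genes with an entry 5 (33.33%) held it, against 5.59% of all windows, and Nr1d1, Bhlhe40 and Bhlhe41 were the other genes with a match. The windows of Per2, Cry2, Dbp and Nr1d2 did not hold it. These matches too describe the letters and do not show that a factor was bound.

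Of 16 clock genes tested 2 were higher and 11 lower, with a median of -1.16, and 2 were higher and 12 lower with the muscle covariate. Ciart, a repressor of the loop, was at 37.1, 24 and 21.4 CPM in controls and 2.6, 0.629, 1.54, 2.78 and 2.66 CPM at 21 days (log2 fold change -3.75, SE 0.425, edgeR adjusted p = 8.11e-08). Tef and Dbp, output transcription factors, were at 395, 332 and 449 and 362, 294 and 610.1 CPM in controls against 145, 75.8, 134, 121 and 173 and 129, 51.5, 147, 141 and 182 CPM. In all 3 genes every repaired tendon was below every control and replicate 2 was the lowest. Tef had a log2 fold change of -1.60 (SE 0.19, edgeR adjusted p = 1.58e-07) and Dbp a log2 fold change of -1.70 (SE 0.301, edgeR adjusted p = 2.9e-05).

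Per2 and Nr1d1, of the feedback loops, were lower at 141, 115 and 96.7 against 55.7, 36.4, 60.2, 68.5 and 69.8 CPM and 262, 278 and 188 against 114, 57.9, 101, 114 and 103 CPM (-1.02 and -1.31, edgeR adjusted p = 0.000297 and 8.31e-06). The activator genes were on the other side. Npas2 was at 4.81, 5.93 and 5.31 CPM in controls and 40.1, 55.1, 42.3, 37.6 and 22 CPM at 21 days (log2 fold change 2.88, SE 0.333, edgeR adjusted p = 1.07e-07), and Arntl at 8.87, 10.9 and 3.84 against 28.3, 43.6, 24.6, 23.4 and 14.4 CPM (log2 fold change 1.75, SE 0.389, edgeR adjusted p = 0.000378), again with no overlap. Clock and Cry2 passed the test but fell short of the fold threshold, and Bhlhe41 did not pass the test (log2 fold change 0.33, -0.41 and -0.73, edgeR adjusted p = 0.0477, 0.0139 and 0.123). Scaled by library size only, 3 clock genes were higher and 7 lower. The hour of harvest is not given in the sources used here, and its part in these values was not tested.

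**Figure D5:**
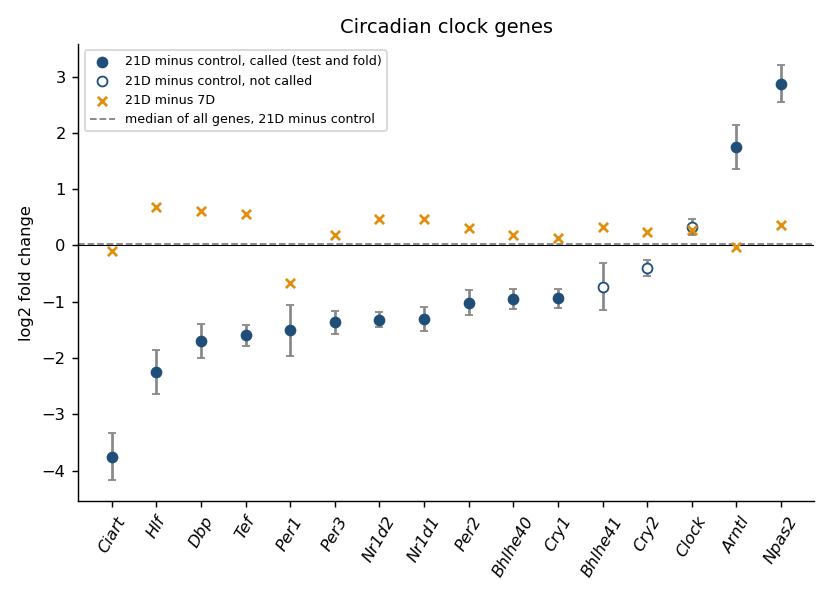
Log2 fold changes of the 16 clock genes, 21D 0 mg/kg minus control, with 1 SE as bars (filled points were called by the test and the fold threshold together, open points were not), and crosses for 21D minus 7D, 0 mg/kg. Values against control run from -3.75 for Ciart to 2.88 for Npas2, while all crosses lie between -0.68 and 0.68.

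Markers of vessels, nerve, fat and skin gave few calls. Of 13 endothelial genes 1, Eng, was higher and none lower, with a median of 0.32. Cdh5, VE-cadherin, was at 45.4, 96.8 and 239.6 CPM in controls and 183, 80.4, 106, 87.1 and 121 CPM at 21 days (log2 fold change -0.14, SE 0.363, edgeR adjusted p = 0.746) and Plvap, of fenestrated vessels, at 51.8, 243 and 77.1 against 329, 155, 208, 165 and 124 CPM (log2 fold change 0.66, SE 0.403, edgeR adjusted p = 0.151). Without control replicate 4, 3 of the 13 were called higher, and scaled by library size only 10 were. Of 9 pericyte genes Pdgfrb, which fibroblasts also express, was higher (log2 fold change 1.51, SE 0.219, edgeR adjusted p = 2.12e-06), and Ndufa4l2 was lower (log2 fold change -2.69, SE 0.434, edgeR adjusted p = 8.96e-06) with Abcc9. Schwann cell genes had a median of 0.51. Of 13 adipocyte genes Plin4, a lipid droplet protein, was lower (log2 fold change -2.86, SE 0.656, edgeR adjusted p = 0.000525), and Adipoq was at 38.3, 105 and 47.4 against 131, 46.8, 138, 112 and 68.5 CPM (log2 fold change 0.64, SE 0.624, edgeR adjusted p = 0.373). Of 6 skin genes Krt15 was called lower (log2 fold change -4.78, SE 2.11, edgeR adjusted p = 0.049), which rested on the keratin counts of control replicate 3, and the call was also lost without 21D replicate 1, 2, 3 or 5. Among the immediate early genes, Nr4a1, which contracting muscle induces, was lower (log2 fold change -2.05, SE 0.444, edgeR adjusted p = 0.000284) and Atf3, of the stress response, was higher (log2 fold change 1.70, SE 0.473, edgeR adjusted p = 0.00288). In the prostaglandin list 7 of 17 genes were higher, or 4 with the muscle covariate, and 2 lower, and Hpgds, the target of the compound under study, was at 7.08, 4.37 and 0.654 CPM in controls and 1.98, 1.32, 2.27, 4.45 and 1.93 CPM in the vehicle-treated repaired tendons (log2 fold change -0.77, SE 0.503, edgeR adjusted p = 0.177).

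Against the 7D 0 mg/kg tendons, the same model called 234 genes higher (1.86%) and 194 lower (1.54%) at 21 days, 3.41% of those tested. Of the 3184 genes above control at day 21, 3017 were not called between the time points, 120 were below and 47 above their day 7 level, and of the 3163 below control 3021 were not called, 134 were above and 8 below day 7. Comparisons that miss the threshold do not show equal levels, and both comparisons use the same 21D tendons. These counts were sensitive to single tendons: without 21D replicate 2 they were 640 and 317, without 21D replicates 1, 4 or 5 they were 106, 129 and 110 higher and 99, 118 and 80 lower, and without 7D replicates 3, 4 or 5 they were 69, 97 and 102 higher and 78, 108 and 112 lower.

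Genes of acute inflammation were among those below their day 7 level, with 4 of 12 lower and none higher. Slpi, a leukocyte protease inhibitor, was at 47.7, 21.8, 148, 66.4 and 75.6 CPM in 7D replicates 1 to 5 and 10.2, 4.28, 12.7, 17.1 and 9.91 CPM at 21 days, with no overlap (log2 fold change 21D minus 7D -2.73, SE 0.561, edgeR adjusted p = 0.00778). C3 was at 122, 76.9, 71.5, 65.5 and 142 CPM at 7 days and 15.1, 30.1, 27.9, 27.9 and 20.3 CPM at 21 days (log2 fold change 21D minus 7D -1.98, SE 0.371, edgeR adjusted p = 0.00422), S100a8 at 24.4, 15.9, 25.3, 19.4 and 9.06 against 2.94, 4.0, 5.64, 3.83 and 1.44 CPM (log2 fold change 21D minus 7D -2.39, SE 0.558, edgeR adjusted p = 0.0156), and Cd8a at 18.7, 10.03, 16.7, 15 and 31.1 against 6.83, 6.2, 3.6, 7.41 and 4.87 CPM (log2 fold change 21D minus 7D -1.66, SE 0.281, edgeR adjusted p = 0.00182). Cxcl6, a neutrophil chemokine, was at 5.57, 15.1, 83.3, 8.61 and 10.4 against 0.764, 5.38, 0.25, 1.53 and 2.73 CPM (log2 fold change 21D minus 7D -3.54, SE 0.789, edgeR adjusted p = 0.0121), with 1 count in all controls. Of the genes named here all but S100a8 were still called above control, but Slpi, C3 and Cd8a are not in the acute inflammation list. Csf3r and Lcn2, the other genes of that list below day 7, were not called against control. Their log2 fold changes against control were 1.09 and 0.12 (edgeR adjusted p = 0.127 and 0.859).

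Genes of the matrix and growth factor lists were called unevenly between the time points, where 3.41% of all genes were called. None of 9 fibrillar collagens was called. Of 18 matricellular genes 2 were lower (Tnc and Tnn) and 2 higher (Nov and Smoc2). Of 16 elastic fibre genes 2 were lower (Efemp2 and Emilin1) and 1 higher (Ltbp4). Of 22 BMP and WNT genes 4 were lower and 4 higher, and of 9 IGF genes 1 of each. Of 23 collagen folding and crosslinking enzymes 1 was lower (P3h1), and of 15 TGF-beta pathway genes 1 was lower (Inhbb). Each of these lists but the fibrillar collagens had a larger share called than all genes, but each share rests on few genes. How these list counts against day 7 depend on single tendons or on the muscle share was not tested. Tnc was at 572, 894, 1249, 1451 and 547 CPM at 7 days against 208, 460.4, 409.5, 251 and 203 CPM at 21 days (log2 fold change 21D minus 7D -1.62, SE 0.409, edgeR adjusted p = 0.0232), and Tnn, Tnfaip6 and Emilin1 were lower with log2 differences of -1.22, -1.09 and -1.01 (edgeR adjusted p = 0.043, 0.0213 and 0.008). The WNT inhibitor Sfrp2 was at 259, 350.4, 294, 367 and 439 against 60.3, 63.3, 119, 145 and 91.5 CPM (log2 fold change 21D minus 7D -1.83, SE 0.31, edgeR adjusted p = 0.00182), and Igfbp4 was lower with a log2 difference of -0.83. Acta2 was at 157, 138, 242, 263 and 99.9 against 92.1, 76.8, 91.5, 65.6 and 63.3 CPM (log2 fold change 21D minus 7D -1.21, SE 0.307, edgeR adjusted p = 0.024), 1 of 3 smooth muscle and myofibroblast genes below day 7.

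Other genes were above their day 7 level. Mgp was at 584, 467, 404, 449 and 462 CPM at 7 days and 1327, 1125, 2354, 1324 and 1554 CPM at 21 days (log2 fold change 21D minus 7D 1.70, SE 0.246, edgeR adjusted p = 0.000663), with every 21D tendon above every 7D tendon. Fam81a was at 2.25, 3.26, 2.91, 3.1 and 1.22 against 14.2, 5.79, 17.7, 8.56 and 10.6 CPM (log2 fold change 21D minus 7D 2.16, SE 0.349, edgeR adjusted p = 0.00127), and Adamts8, a secreted metalloproteinase, at 2.19, 5.32, 2.18, 3.94 and 2.75 against 13.6, 6.01, 14.6, 20.2 and 16.5 CPM (log2 fold change 21D minus 7D 2.11, SE 0.486, edgeR adjusted p = 0.0144). Mmp16 was higher by 1.68 and Mamdc2, a secreted protein, by 1.88 (edgeR adjusted p = 0.00114 and 0.000696). Mkx was at 0.302, 0.11, 0.616, 0.348 and 0.273 CPM at 7 days and did not pass against day 7 (log2 fold change 21D minus 7D 1.68, SE 0.545, edgeR adjusted p = 0.065). Skeletal muscle genes were 4 of 28 higher, with a median of 2.62, and the muscle share, at 0.171 to 1.24% at 7 days, moved with it, whose part in this contrast the covariate bears on: with it 87 genes were higher and 90 lower than at day 7. Lumican, Col3a1 and Cthrc1 were not called between the time points (-0.75, -0.38 and -0.63), and the cell cycle and clock lists had medians of -0.41 and 0.29 against day 7.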

How the data were processed

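RNA of 1 tendon per rat was sequenced as single-end reads, which the authors trimmed with fastp, mapped with STAR to the rat genome rn6 and counted over exons of Ensembl genes. The deposited values are raw read counts per gene and tendon, in a table of 13124 genes from which the authors had removed low genes and tendons of poor read quality. A second deposited table holds gene widths (another unit, not a measurement of the tendons) and the authors' own fold changes, p-values and adjusted p-values between groups. Only its chromosome names were used. Column names gave the group and replicate of each tendon, and no column lacked a sample.

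Counts of all 30 tendons were fitted as 7 group means with edgeR 4.0.16 (quasi-likelihood test, TMM scaling) in R 4.3.3, so that the groups shared 1 estimate of spread. A gene was tested when its mean reached 3 CPM in at least 1 group, which kept 12558 genes and removed 566. Genes were called at a Benjamini-Hochberg adjusted p below 0.05 when the groups also differed 1.5-fold or more, for 21D 0 mg/kg against control and against 7D 0 mg/kg. DESeq2 1.42.0, other scalings and filters, leaving out tendons, and the log2 muscle share as a covariate were alternatives. The muscle share was tested with an exact permutation test (scipy 1.17.1). The scripts were tested on simulated data. A count of 0 allows up to 3 counts, which was 0.120 to 0.245 CPM on the TMM scale in controls and 0.0623 to 0.105 CPM at 21 days. Intervals and floors cover counting error only.

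The groups, gene lists and genes were chosen with earlier results of these data known. Named genes were the largest called changes at 10 CPM or more, with the muscle covariate, between the time points and within each list, plus anchor genes of the lists. Cdk1, Tef, Per2 and Nr1d1 were added after their values were seen. Promoter windows came from RefSeq tables for GRCr8, matched by gene symbol. Some genes are not reported here.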

Additional observations from a re-analysis of the deposited data

Results flagged for a closer look

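Among the 5 tendons of the 21D 0 mg/kg group, 20 of 174 values tested held a tendon set apart from the others by more than Dixon's 95% critical value. Chance gives about 1 in 20 only for independent values with a normal spread. These values come from the same 5 tendons, and all flags but Nr1d1 were on the high side, so nothing is read from the excess. Replicate 3 was high for matrix genes: Bgn at 3195 CPM, Col11a2 at 30.6 CPM, P4ha3 at 107 CPM, Thbs4 at 2276 CPM, Col2a1 at 7.13 CPM and Mmp2 at 3831 CPM, with summed levels of 13815 CPM for the small leucine-rich proteoglycans and 2583 CPM for the osteoblast and mineral genes. Replicate 2 was high for Runx2 at 34.5 CPM, Spp1 at 4457 CPM, Ccl2 at 206 CPM, Il1b at 27.6 CPM and Ndufa4l2 at 48.4 CPM, and low for Nr1d1 at 57.9 CPM. Replicate 5 was high for Musk at 2.31 CPM, Nr4a1 at 173 CPM and Cfap52 at 1.89 CPM. Replicate 4 was high for the keratins Krt15 at 3.20 CPM and Krt5 at 0.835 CPM, and replicate 1 for the summed endothelial genes at 1813 CPM.

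The change against control differed between day 21 and day 7 for 17 of the 132 genes described, by edgeR's test of the contrast itself with adjustment over all genes. Across all genes tested 3.41% differed so, but the largest changes against day 7 were among the genes chosen, so nothing is read from this share. On the log2 scale, 21D minus 7D, the difference was -1.62 for Tnc, -1.22 for Tnn, -1.01 for Emilin1, -1.09 for Tnfaip6, -1.83 for Sfrp2 and -0.83 for Igfbp4. Among immune genes it was -2.39 for S100a8, -3.54 for Cxcl6, -2.73 for Slpi, -1.66 for Cd8a and -1.98 for C3, and it was -1.21 for Acta2. The genes with a positive difference were Mgp at 1.70, Mmp16 at 1.68, Fam81a at 2.16, Adamts8 at 2.11 and Mamdc2 at 1.88.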

How the results depend on the processing

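Against control, the counts of 3184 higher and 3163 lower genes stayed within 1.5 times under each alternative except scaling by library size only (6023 and 1581), and ranged from 2555 to 3431 and from 2921 to 3464 with 1 tendon left out. Against 7D, the 234 higher genes became 134 with only the compared groups, 540 with DESeq2, 87 with the muscle covariate, 43 without the 2 repaired tendons over 5% muscle (chosen after seeing the data) and 362 with no fold threshold. The 194 lower genes became 345 with DESeq2, 90 with the covariate, 19 without those 2 tendons and 310 with no fold threshold. With 1 tendon left out they ranged from 69 to 640 and from 78 to 317. With 1 tendon left out, the log2 muscle share difference ranged from -4.13 to -2.41, and its exact permutation p reached at most 0.0952. That is the smallest p possible with a control left out. Every repaired tendon stayed below every control, and with 1 tendon left out no p under 0.05 was possible, so the rise in p does not bear on the difference.

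Changes of sign were seen for genes that did not pass the test, and for Krt15. Scaled by library size only, the log2 fold change was 0.46 for Dcn, 0.17 for Tnmd and 0.52 for Cdh5. With the muscle covariate it was -0.19 for Mmp3, 2.26 for Myh7 and 0.32 for Cdh5, and without the 2 tendons over 5% muscle it was 0.027 for Dcn. With 1 tendon left out, Dcn ranged from -0.42 to 0.26, Tnmd from -0.59 to 0.054, Comp from -1.17 to 0.71, Mrc1 from -0.16 to 0.80, Acta2 from -0.086 to 0.80, Cdh5 from -0.60 to 0.65, Krt15 from -9.99 to 4.28 and Krt5 from -7.78 to 5.42. The cause was not tested.

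Replicate numbers did not pair the tendons, since same-numbered control and 21D tendons had correlations of 0.198, 0.0510 and -0.172. With the replicate block the counts were 3233 higher and 3159 lower against control, and 224 and 202 against 7D. Groups of 3 and 5 tendons limit the precision, and the 3 controls differed among themselves in muscle and keratin counts.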
